A study of Mus musculus with 4 samples.

Results

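Secretory cells of the mouse trachea in which Scgb3a1 transcripts outnumbered Scgb3a2 transcripts were examined by single-cell RNA sequencing. They were chosen by measured values, the counts of unique molecular identifiers (UMIs, 1 per captured transcript) of 10 genes in each cell, so contrasts between classes are descriptions. A cell was a member when it had at least 300 genes, at most 20% mitochondrial counts, Scgb1a1 at 5% or more of its counts, and more UMIs of Scgb3a1 than of Scgb3a2. The summed ciliated genes Ccdc153, Tmem212, Dynlrb2 and Rsph1 had to be under 0.05% of UMIs, Krt13 with Krt4 under 0.1%, and Tff2 under 10 per 10000 UMIs. This rule found 3113 cells, called Scgb3a1-high here, among 20359 filtered cells and 21667 barcodes. They were set against 2574 Scgb3a2-high cells, which passed the same limits with more Scgb3a2 than Scgb3a1, and against 160 Tff2-high cells, which differed in having Tff2 at or above its limit, whatever their Scgb3a1 and Scgb3a2. A further 20 cells had equal counts of both genes and were used in neither class.

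The study's 4 groups, all on the 129S6/SvEvTac background and aged 5 to 8 months, were 3 mutant lines with primary ciliary dyskinesia and wild-type mice. The mutants were bgh, with a mutated Spef2, Cfap54gt/gt, a gene trap allele, and nm1054, which lack Cfap221. For each group the cells of 6 tracheas (for bgh, 5) were combined and made into 1 library, after pronase digestion, plating to remove fibroblasts, and dead-cell removal. The sources used here tie no library number to a genotype, so values are given for libraries 1 to 4 and genotypes are not compared.

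Club cells are the main secretory cells of the airway surface. They release secretoglobins, antimicrobial proteins and protease inhibitors into the airway lining fluid, metabolize inhaled chemicals, and can act as progenitors of ciliated and goblet cells. Scgb1a1, Scgb3a1 and Scgb3a2 encode small secreted secretoglobins, and Scgb3a1 is known for its high expression in the proximal airway of the mouse.

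Libraries 1 to 4 held 583, 773, 1092 and 665 Scgb3a1-high cells with medians of 16894, 13120, 9029 and 11568 UMIs. The Scgb3a2-high cells numbered 386, 401, 985 and 802, with medians of 15987.5, 12438, 8598 and 11218 UMIs. Both classes thus had similar depths within each library, and library 3 was the shallowest in both. Members were 15.3%, 19.5%, 15.3% and 12.2% of the filtered cells of libraries 1 to 4. Exact 95% binomial (Clopper-Pearson) intervals were 14.2% to 16.5%, 18.3% to 20.8%, 14.4% to 16.1% and 11.4% to 13.1%. These intervals, like all given here, cover counting error only. Among cells of both classes, members were 60.2%, 65.8%, 52.6% and 45.3%, so they outnumbered Scgb3a2-high cells in libraries 1 to 3 and were outnumbered in library 4. Libraries shared 52 barcode sequences, carried by 14 members and 14 Scgb3a2-high cells among others.

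Summing UMIs over the cells of a class in a library and scaling to counts per 1000000 UMIs (CPM) gave the levels of each class. Scgb3a1, which the rule used, stood at 69625, 52687, 60611 and 53307 CPM in Scgb3a1-high cells of libraries 1 to 4, against 8339, 8314, 8089 and 5789 CPM in Scgb3a2-high cells. Scgb3a2 stood at 21308, 18357, 20443 and 21066 CPM in Scgb3a1-high cells, against 24556, 20260, 24083 and 21645 CPM in Scgb3a2-high cells. The rule used both genes, so these levels describe the classes only. Scgb1a1 was at 200131, 158302, 164669 and 177928 CPM in Scgb3a1-high cells, against 225433, 183471, 177979 and 153258 CPM in Scgb3a2-high cells, lower in 3 libraries and higher in library 4. In single cells, Scgb3a1 took a median of 5.25% of UMIs in members, against 0.307% in Scgb3a2-high cells.

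**Figure D1:**
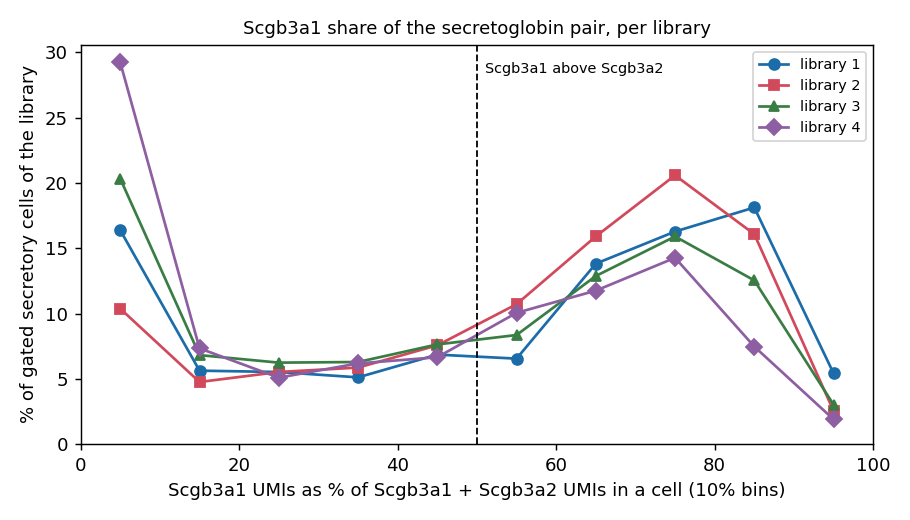
Share of Scgb3a1 among the Scgb3a1 and Scgb3a2 UMIs of each gated cell (x axis, 10% bins), as a percentage of the gated cells of each library (y axis); 1 line per library and a dashed line at 50%. Cells gather at both a low and a high share in every library, and library 4 has the most cells in the lowest bin.

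Over all libraries the share of Scgb3a1 in the pair was spread in 2 groups. The bin from 0 to 10% held 1135 cells and the bin from 70 to 80% held 942, with a low of 324 cells in the bin from 20 to 30%. The 229 cells at 50 to 55% had 363 CPM of Sftpa1 and 162 CPM of Dmbt1, and the 203 cells at 45 to 50% had 321 and 137 CPM. Calcb was at 27.6 CPM inside that boundary and 79.1 CPM outside it. Near the Scgb1a1 limit, 144 members at 5 to 6% had 54694 CPM of Scgb1a1, and 150 cells at 4 to 5%, just outside, had 45124 CPM. The windows fixed these Scgb1a1 levels. Sftpa1 was at 497 CPM inside and 399 CPM outside, Dmbt1 at 388 and 367 CPM, and Calcb at 106 and 29.7 CPM. Near the Tff2 limit, the 107 members at 5 to 10 per 10000 had 93358 CPM of Scgb3a1. The 41 cells at 10 to 15 per 10000, taken only where Scgb3a1 was above Scgb3a2, had 88304 CPM. Sftpa1 was at 1152 CPM in the 107 cells and 1063 CPM in the 41, and Dmbt1 at 509 and 568 CPM.

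The members carried the markers of a secretory cell, with 6 club genes outside the rule summing to 131378 to 177064 CPM, against 128408 to 167980 CPM in Scgb3a2-high cells. Bpifb1, Dmbt1 and Sftpa1 among these genes were also the class's own markers. The lists were chosen with earlier results of these data known, so the sum is a description. Most of the sum was Bpifa1, at 123348 to 168192 CPM in members. Cyp2f2 and Aldh1a1 were lower in members than in Scgb3a2-high cells in each library, and the other genes of the sum were higher. The same 6 genes summed to 2359 to 14563 CPM in basal keratin cells and 4639 to 6183 CPM in cells high in ciliated genes, which should lack them. For Scgb1a1, which the rule used, basal keratin cells had medians of 0.0552% to 0.0934% Scgb1a1, and cells high in ciliated genes had 0.0836% to 0.187%, at lower depths (medians of 3386 to 6479 and 1709 to 2764 UMIs). In members the median was 14.5% to 18.2%. Markers of other cells were present as well. The 7 goblet genes outside the rule summed to 520 to 759 CPM in members, against 363 to 550 CPM in Scgb3a2-high cells. The 11 serous or gland genes summed to 2715 to 4053 CPM in members, against 7101 to 8261 CPM in Scgb3a2-high cells. Most of that was Ltf, and Dcpp1, Dcpp2, Dcpp3, Prol1, Smgc and Pip were at 0 in both. The 10 macrophage or monocyte genes summed to 2784 to 5743 CPM in members, against 2390 to 5732 CPM in Scgb3a2-high cells. Most of that was Lyz2, and Adgre1 and C1qb were at 0 in members. Summed over 9 basal genes, members had 581 to 693 CPM, Scgb3a2-high cells 981 to 1554 CPM, and basal keratin cells 7728 to 10117 CPM. Most of the members' sum was Krt15, at 485 to 579 CPM, while Trp63 was at 0.188 to 0.529 CPM. The 7 suprabasal or hillock genes outside the rule summed to 135 to 728 CPM in members, against 612 to 1061 CPM in Scgb3a2-high cells. The 5 ciliated genes outside the rule summed to 153 to 194 CPM in members, against 210 to 292 CPM in Scgb3a2-high cells. The 9 tuft genes summed to 45.9 to 98.4 CPM in members, against 19.2 to 48.0 CPM in Scgb3a2-high cells. This sum was higher in members in each library, but Pou2f3 of the list was lower in members in libraries 3 and 4. The 8 neuroendocrine genes summed to 24.1 to 55.2 CPM in members, against 14.9 to 29.3 CPM in Scgb3a2-high cells. T cell, B cell and neutrophil sums were at or under 1.59 CPM in both classes. The part of these other markers in the differences below was not tested.

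The genes that differed most between the classes are set out with stretches of DNA before the transcription start of 5 of them. Scgb3a1 is shown because it defines the class, Sftpa1, Reg3g and Lcn2 because they were higher in it, and Sftpb because this other surfactant gene was lower. Each sequence runs 5′ to 3′ on the gene's strand, from 250 bases before the RefSeq start to 50 after it, in build GRCm38.p6. The positions are chr11:49663345-49663644 (+) for Scgb3a1, chr14:41131538-41131837 (+) for Sftpa1, chr6:78468825-78469124 (−) for Reg3g, chr2:32387690-32387989 (−) for Lcn2 and chr6:72304360-72304659 (+) for Sftpb. Capitals mark matches, on either strand, to letters used for airway factors: TGTTTAC or TGTTTGC for FOXA, TTGCNNAA for C/EBP and CTCAAG for NKX2-1. The NF-kB motif was searched as well. No marked matches overlap.
Scgb3a1: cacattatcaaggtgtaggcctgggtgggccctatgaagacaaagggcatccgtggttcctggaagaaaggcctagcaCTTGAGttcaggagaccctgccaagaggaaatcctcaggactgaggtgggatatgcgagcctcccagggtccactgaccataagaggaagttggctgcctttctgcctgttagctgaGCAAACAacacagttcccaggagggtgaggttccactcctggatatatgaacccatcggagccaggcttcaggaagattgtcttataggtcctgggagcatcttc
Sftpa1: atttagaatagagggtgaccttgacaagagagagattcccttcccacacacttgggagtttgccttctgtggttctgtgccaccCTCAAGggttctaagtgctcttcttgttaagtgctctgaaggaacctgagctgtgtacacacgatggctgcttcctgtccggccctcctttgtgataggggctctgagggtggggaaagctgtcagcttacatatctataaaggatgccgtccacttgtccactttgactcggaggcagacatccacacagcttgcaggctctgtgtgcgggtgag
Reg3g: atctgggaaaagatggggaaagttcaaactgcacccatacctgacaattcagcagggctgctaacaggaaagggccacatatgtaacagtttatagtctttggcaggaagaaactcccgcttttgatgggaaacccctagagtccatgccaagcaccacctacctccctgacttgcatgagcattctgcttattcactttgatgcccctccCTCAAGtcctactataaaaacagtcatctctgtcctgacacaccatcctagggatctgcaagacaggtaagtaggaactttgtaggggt
Lcn2: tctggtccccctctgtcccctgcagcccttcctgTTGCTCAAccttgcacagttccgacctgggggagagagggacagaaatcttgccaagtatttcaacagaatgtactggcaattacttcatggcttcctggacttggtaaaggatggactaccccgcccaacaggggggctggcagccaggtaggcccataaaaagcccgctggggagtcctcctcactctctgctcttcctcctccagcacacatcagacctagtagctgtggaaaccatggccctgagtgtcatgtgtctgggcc
Sftpb: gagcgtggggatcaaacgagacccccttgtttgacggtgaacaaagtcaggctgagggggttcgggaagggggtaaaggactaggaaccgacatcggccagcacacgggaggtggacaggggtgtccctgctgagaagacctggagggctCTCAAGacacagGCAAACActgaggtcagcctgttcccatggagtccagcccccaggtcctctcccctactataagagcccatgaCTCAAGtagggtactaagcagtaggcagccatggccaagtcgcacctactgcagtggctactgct
Scgb3a1 held 1 FOXA match, 55 bases before the start, and 1 NKX2-1 match. Sftpa1 and Reg3g each held 1 NKX2-1 match, Lcn2 held 1 C/EBP match, and Sftpb held 1 FOXA and 2 NKX2-1 matches. Of the 12 higher genes named below, promoter entries of 9 were searched. Of these, 4 held the C/EBP letters, 4 the NKX2-1 letters and 0 the FOXA or NF-kB letters. Of the 12 lower genes, 10 promoter entries of 9 genes were searched. Of these, 4 held the C/EBP letters, 2 the FOXA letters, 1 the NKX2-1 letters and 0 the NF-kB letters. The C/EBP count includes both entries of Serpinb2, whose windows overlap. Over all 32851 RefSeq mouse promoters, 8.48% held the FOXA letters, 10.8% the C/EBP letters, 4.59% the NF-kB letters and 15.9% the NKX2-1 letters. Entries on 1 chromosome were left out for the named genes but kept in these shares. A match describes the letters in this window only.

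The Scgb3a1-high cells carried more transcript of Sftpa1, Dmbt1, Reg3g and Lcn2, and less of Calcb, Ecm1, S100g and Sftpb, than the Scgb3a2-high cells. Among 8986 genes with at least 200 UMIs over both classes, outside the 10 genes of the rule, 24 were at least 2-fold higher in all 4 libraries (0.267%) and 33 at least 2-fold lower in all 4 (0.367%). Ratios are of CPM with 1 CPM added, and no p-value is given because the rule chose the cells by their own counts. The genes named as furthest apart were chosen by their ratio in the least different library. A lack of overlap between classes follows largely from that choice, and its share over all genes is not given. With the UMIs of the 3 secretoglobins left out of the denominator, the counts were 33 higher and 30 lower. The direction alone was higher in 4 of 4 libraries for 7.6% of genes and lower for 39.7%, with a median log2 ratio of −0.14 over all genes.

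Antimicrobial and host-defence products were among the genes furthest above the Scgb3a2-high cells. Sftpa1 encodes surfactant protein A, a collectin that binds microbial sugars. Its level was 697, 468, 696 and 890 CPM in Scgb3a1-high cells of libraries 1 to 4, against 126, 103, 134 and 139 CPM in Scgb3a2-high cells. All 4 libraries of the members lay above all 4 of the other class, with a median log2 ratio of 2.41. Dmbt1, a scavenger receptor glycoprotein that binds bacteria, was at 441, 170, 255 and 334 CPM in Scgb3a1-high cells, against 86.3, 42.0, 57.6 and 81.2 CPM in Scgb3a2-high cells. Its log2 ratios lay between 1.99 and 2.34, and the classes did not overlap. Reg3g, a bactericidal C-type lectin, was at 12254, 6074, 7928 and 12132 CPM in Scgb3a1-high cells, against 3088, 1152, 1796 and 3355 CPM in Scgb3a2-high cells. The lowest library of the members was above the highest of the other class. Lcn2 encodes lipocalin 2, which binds bacterial siderophores. It was at 222, 30.9, 73.4 and 199 CPM in Scgb3a1-high cells, against 59.6, 5.33, 13.1 and 34.4 CPM in Scgb3a2-high cells. Its ratio was high in every library (1.88 to 2.50 on the log2 scale), but library 2 of the members lay below libraries 1 and 4 of the other class.

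Lyz1, a lysozyme, was at 115, 63.8, 85.6 and 193 CPM in Scgb3a1-high cells, against 26.2, 18.1, 5.53 and 25.7 CPM in Scgb3a2-high cells. Lyz1 and its near copy Lyz2 can share reads, and the split between them is uncertain. Chil1, a chitinase-like protein, was at 19.6, 3.36, 5.29 and 29.2 CPM in members, against 2.38, 0.485, 0.888 and 2.50 CPM in Scgb3a2-high cells. The lowest of the Scgb3a2-high values rested on 3 UMIs. Trf, the iron carrier transferrin, was at 481, 217, 250 and 382 CPM in members, against 145, 77.4, 71.5 and 91.2 CPM in Scgb3a2-high cells, with no overlap. Bpifb1, a BPI-fold protein used as a marker of the class, was at 2493, 1085, 1182 and 2149 CPM in members, against 1075, 420, 624 and 903 CPM in Scgb3a2-high cells, more than 2-fold higher in 3 of 4 libraries.

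The other genes furthest above the Scgb3a2-high cells had various roles. Serpinf1, a secreted serpin, was at 25.4, 20.2, 25.9 and 28.2 CPM in members, against 5.35, 2.75, 3.55 and 4.91 CPM in Scgb3a2-high cells. Lox, the lysyl oxidase that cross-links collagen and elastin, was at 28.4, 19.5, 12.2 and 22.5 CPM in members, against 2.23, 3.39, 2.86 and 4.04 CPM in Scgb3a2-high cells. Both were clear of overlap. Sult1c1, a cytosolic sulfotransferase, was at 48.9, 18.8, 35.4 and 45.5 CPM in members, against 3.12, 5.33, 5.03 and 6.55 CPM in Scgb3a2-high cells. Its relative Sult1c2 was low in both classes, at 3.19 to 6.79 CPM in members and 0.485 to 1.18 CPM in Scgb3a2-high cells, the lowest resting on 3 UMIs. Retnla, a resistin-like secreted protein, was at 49.9, 18.7, 12.6 and 20.2 CPM in members, against 13.5, 0.808, 3.16 and 4.62 CPM in Scgb3a2-high cells, with overlap through libraries 1 and 3. Tff2, which the rule capped, stood at 87.4, 47.5, 53.9 and 72.2 CPM in members, against 14.1, 7.91, 10.7 and 10.0 CPM in Scgb3a2-high cells.

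**Figure D2:**
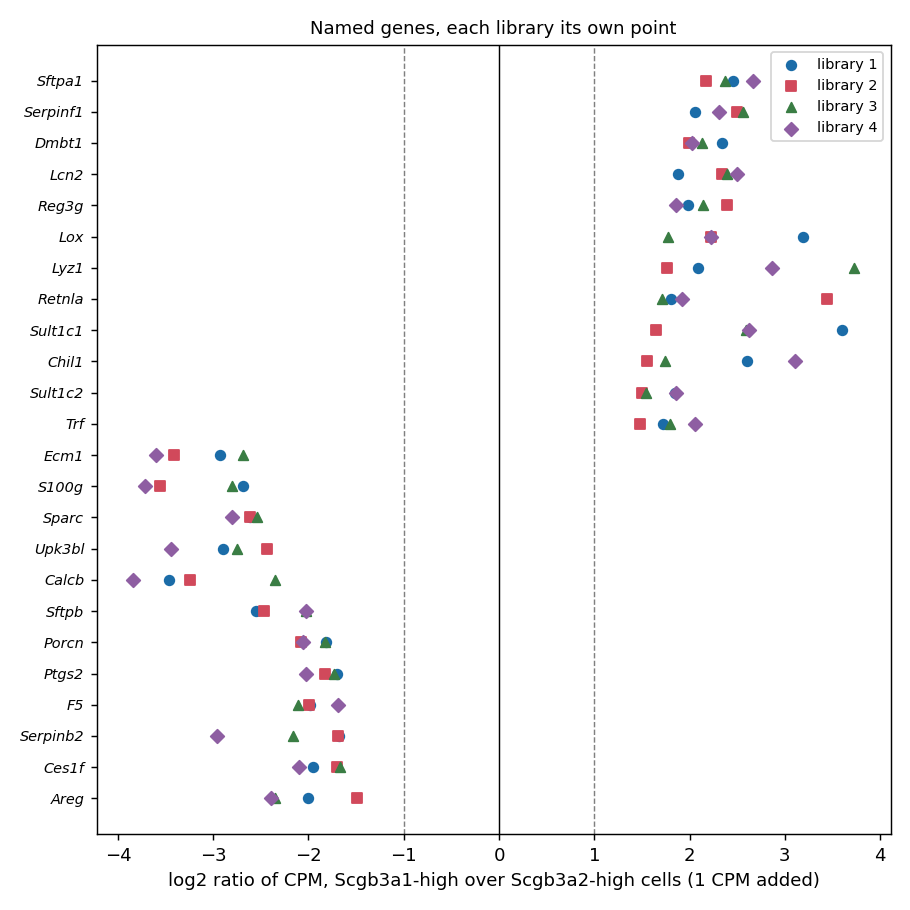
log2 ratio of CPM in Scgb3a1-high over Scgb3a2-high cells (x axis, 1 CPM added) for the 12 named higher and 12 named lower genes (rows), 1 point per library; the solid line is at 0 and the dashed lines at 2-fold. Each point of the upper 12 genes lies right of 2-fold and each point of the lower 12 left of it, as the choice of these genes fixed.

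Genes with less transcript in Scgb3a1-high cells had various roles. Calcb, the beta form of calcitonin gene-related peptide, was at 13.3, 22.1, 39.9 and 19.3 CPM in members, against 156, 219, 208 and 290 CPM in Scgb3a2-high cells. This was a median of 10.2-fold lower, and the classes did not overlap. Ecm1, a matrix glycoprotein, was at 4.14, 1.98, 9.53 and 4.24 CPM in members, against 38.2, 30.7, 66.7 and 62.7 CPM in Scgb3a2-high cells. S100g, an intracellular calcium-binding protein, was at 12.3, 3.45, 6.00 and 2.55 CPM in members, against 84.6, 51.2, 48.0 and 45.7 CPM in Scgb3a2-high cells. Neither overlapped between the classes. Upk3bl, a uroplakin-like membrane protein, was at 15.9, 19.7, 14.2 and 10.9 CPM in members, against 124, 111, 101 and 129 CPM in Scgb3a2-high cells. Sparc, a matricellular protein, was at 2.82, 2.07, 1.76 and 3.39 CPM in members, against 22.5, 17.8, 15.1 and 29.8 CPM in Scgb3a2-high cells. Sftpb, the hydrophobic surfactant protein B, was at 19.1, 18.7, 23.03 and 28.7 CPM in members, against 117, 108, 96.6 and 120 CPM in Scgb3a2-high cells. It differed in the opposite direction to Sftpa1 in all 4 libraries.

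The remaining lower genes differed by medians of 3.43- to 4.52-fold. Areg, the EGF receptor ligand amphiregulin, was at 15.3, 11.8, 14.5 and 14.1 CPM in members, against 64.6, 34.9, 77.7 and 78.0 CPM in Scgb3a2-high cells. Ptgs2, the inducible cyclooxygenase, was at 34.5, 39.8, 44.6 and 21.8 CPM in members, against 114, 144, 150 and 91.8 CPM in Scgb3a2-high cells. Serpinb2, an inhibitor of plasminogen activators, was at 70.9, 79.6, 54.4 and 32.7 CPM in members, against 229, 259, 248 and 261 CPM in Scgb3a2-high cells. None of these 3 overlapped between the classes, which the way of choosing them favoured. Porcn, the acyltransferase needed to secrete Wnt proteins, was at 12.2 to 17.1 CPM in members, against 52.4 to 63.2 CPM in Scgb3a2-high cells. F5, coagulation factor V, was at 3.10 to 5.12 CPM in members, against 15.2 to 25.5 CPM in Scgb3a2-high cells. Ces1f, a carboxylesterase, was at 21.0 to 30.3 CPM in members, against 82.7 to 98.7 CPM in Scgb3a2-high cells. Serpinb2 and Ecm1 also stood in the suprabasal or hillock list, whose sums are given above.

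The share of cells with a UMI followed the same order. Sftpa1 was found in 71.3% to 76.5% of Scgb3a1-high cells, against 35.9% to 42.5% of Scgb3a2-high cells, with 2.16% to 5.02% in basal keratin cells as a background. Thinned to 3000 UMIs per cell, which left out 33 to 52 members and 14 to 33 Scgb3a2-high cells a library, the shares were 45.5% to 58.3% in members and 14.99% to 21.5% in Scgb3a2-high cells. Dmbt1 was found in 50.97% to 67.8% of members, against 18.0% to 26.3% of Scgb3a2-high cells and 0% to 2.01% of basal keratin cells. Lyz1 was found in 9.43% to 13.4% of members, against 3.55% to 4.99% of Scgb3a2-high cells and 0% to 0.669% of basal keratin cells, so its CPM came from a minority of cells in both classes. Reg3g was found in 95.2% to 99.2% of members and 71.1% to 85.8% of Scgb3a2-high cells, but also in 23.7% to 47.1% of basal keratin cells and 68.0% to 96.4% of cells high in ciliated genes, so presence of a UMI says little for it. Calcb was found in 6.17% to 6.35% of members, against 24.9% to 31.4% of Scgb3a2-high cells. It was also found in 20.4% to 49.4% of basal keratin cells and 0.250% to 1.60% of cells high in ciliated genes.

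Cells were also placed in 5 bins by their own Scgb3a1 share, so that the members could be seen along the range instead of as a block. The bins from 0 to 10%, 10 to 50%, 50 to 65%, 65 to 80% and 80 to 100% held 1135, 1439, 846, 1361 and 906 cells. The last 3 bins are members. In them, Sftpa1 had medians over libraries of 422, 692 and 858 CPM, after 57.0 and 177 CPM in the first 2. In libraries 2 and 4 its last bin was below the one before. Dmbt1 continued upward within the members, at 191, 255 and 513 CPM, after 16.7 and 107 CPM. Serpinf1 was at 16.7, 25.1 and 32.9 CPM in the members' bins, after 0.434 and 6.39 CPM. Reg3g levelled off, at 7810, 10385 and 11413 CPM, after 875 and 3434 CPM. Lyz1 was concentrated at the top, at 18.1, 76.4 and 193 CPM, after 8.58 and 24.1 CPM, and its last bin spread from 80.7 to 778 CPM over libraries. Bpifb1 did not continue upward within the members, at 1559, 1804 and 1540 CPM, after 321 and 1170 CPM.

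By medians over libraries, Calcb, Ecm1 and Upk3bl had most of their difference between the first 2 bins, and Sftpb and Ces1f did not. Not every library followed this. In the first 2 bins and the last, Calcb in library 1 was at 215, 120 and 12.6 CPM. In library 4 these bins were at 162, 73.2 and 13.5 CPM for Sftpb and 117, 65.9 and 18.6 CPM for Ces1f. Calcb was at 417 and 102 CPM in the 2 lowest bins and at 27.7, 17.6 and 9.25 CPM in the members' bins. Library 3 was an exception to the fall within the members, with Calcb at 23.3, 39.8 and 55.9 CPM in the members' bins. Ecm1 was at 83.8 and 22.0 CPM there and at 4.98, 4.48 and 2.75 CPM in the members' bins. Upk3bl was at 218 and 51.3 CPM there and at 18.2, 17.1 and 11.1 CPM in the members' bins. Ces1f was at 122 and 76.2 CPM there and at 34.3, 23.5 and 17.1 CPM in the members' bins. Sftpb was at 145 and 90.6 CPM in the 2 lowest bins and at 40.0, 21.6 and 8.19 CPM in the members' bins. Scgb3a2, which the bins use, was at 24972, 21719 and 13416 CPM in the members' bins. The bins are made from counts of the same cells, so these levels are a description.

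**Figure D3:**
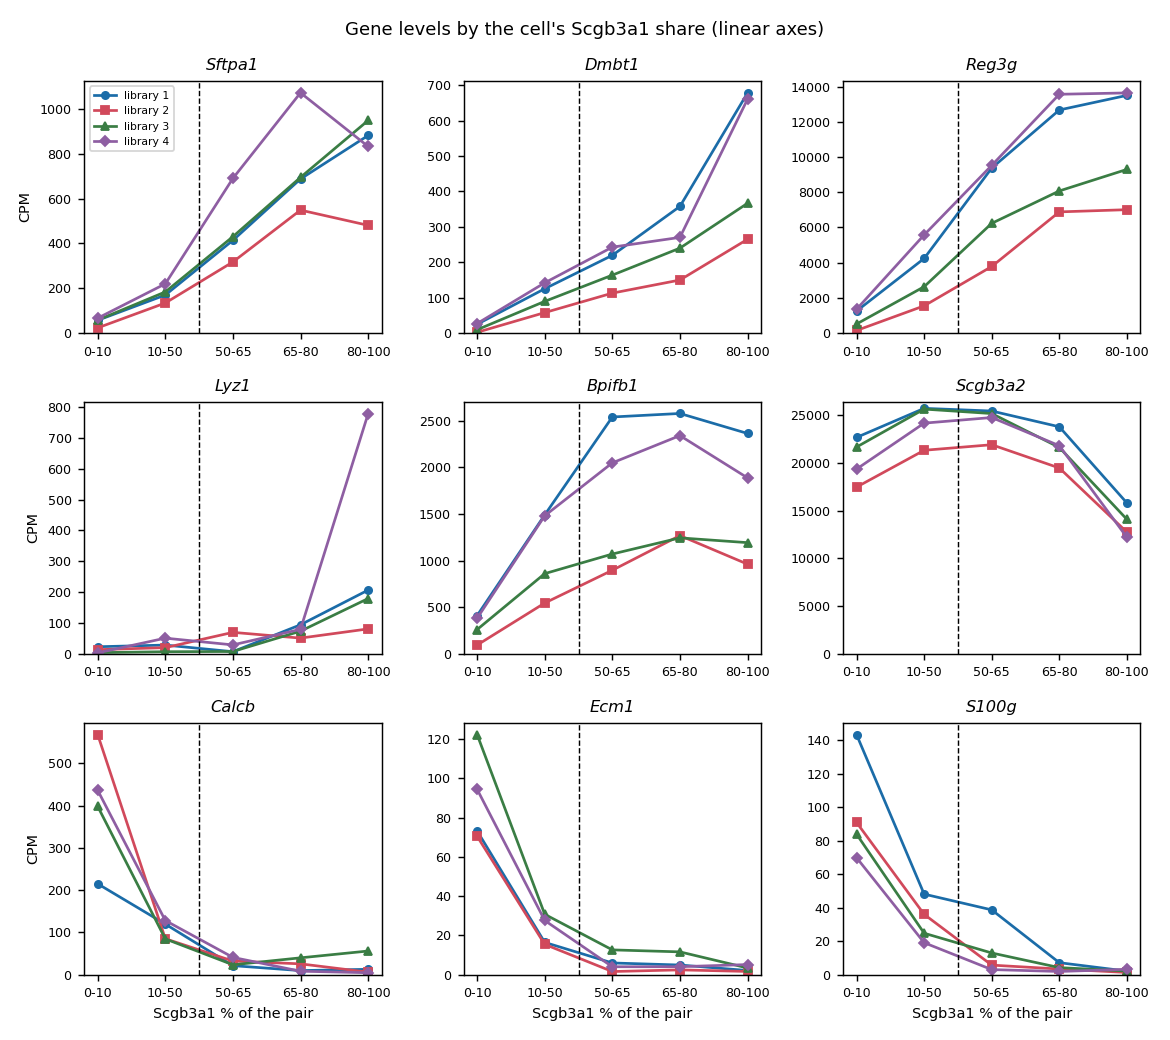
CPM (y axes, linear, different scales) of 9 genes in 5 bins of the cells' Scgb3a1 share of the pair in percent (x axes), 1 line per library; members lie right of the dashed line. Sftpa1, Dmbt1, Reg3g and Bpifb1 are higher right of the line and Calcb, Ecm1 and S100g lower, while Scgb3a2 is lowest in the last bin and Lyz1 is highest in the last bin in each library.

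Gene lists describe how far these differences went through the functions of a secretory cell. Counts are of list members with at least 200 UMIs over both classes, set beside 0.267% higher and 0.367% lower at 2-fold over all genes. Counts of direction alone, in 4 of 4 libraries, are set beside 7.6% higher and 39.7% lower over all genes. Of 14 antimicrobial and BPI-fold genes, 6 were 2-fold higher in all 4 libraries, 1 was 2-fold lower, and the median log2 ratio was 0.95. The 6 were Reg3g, Dmbt1, Chil1, Lcn2, Lyz1 and Wfdc18. Wfdc18, a whey acidic protein domain gene, was at 25.9 to 51.9 CPM in members, against 10.98 to 14.0 CPM in Scgb3a2-high cells. The 1 lower gene was Ltf, the iron-binding milk protein lactoferrin, at 2947, 3230, 3933 and 2495 CPM in members, against 7092, 7107, 8216 and 7047 CPM in Scgb3a2-high cells. Ltf and Lcn2, both of which withhold iron from microbes, therefore differed in opposite directions. Wfdc2 was also lower in 4 of 4 libraries, by a median log2 ratio of −0.39, and Bpifa1 was close to equal, at 0.08.

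Of 11 complement, antibody transport and protease inhibitor genes, 8 were higher in 4 of 4 libraries (7.6% of all genes) and 2 lower (39.7%), with a median log2 ratio of 0.56. Cfb, complement factor B, was the 1 gene past 2-fold in all 4, at 34.5, 14.6, 26.2 and 38.2 CPM in members, against 12.9, 4.20, 7.60 and 14.3 CPM in Scgb3a2-high cells. Timp1, an inhibitor of matrix metalloproteinases, had a median log2 ratio of 0.93, and Anxa1, annexin A1, one of −0.47. Of 5 surfactant genes, Sftpa1 was 2-fold higher and Sftpb 2-fold lower in all 4 libraries. Sftpd, the other collectin, was lower in 4 of 4, at 399 to 559 CPM in members, against 594 to 811 CPM in Scgb3a2-high cells. Sftpc, Napsa and Lamp3, which mark alveolar type 2 cells, had 14, 11 and 0 UMIs over both classes.

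Of 7 mucin genes, 1 was higher and 2 lower in 4 of 4 libraries, with a median log2 ratio of −0.12. The higher one was Muc5b, a gel-forming mucin, at 342, 232, 362 and 322 CPM in members, against 172, 130, 267 and 172 CPM in Scgb3a2-high cells. Muc5ac, the gel-forming mucin of goblet cells, was at 2.74 to 5.08 CPM in members with a median log2 ratio of 0.05. Of 10 goblet program genes, 4 were higher and 1 lower in 4 of 4 libraries. Gp2, a membrane glycoprotein, was the 1 past 2-fold, at 6.96, 3.27, 17.2 and 5.82 CPM in members, against 0.744, 0.969, 1.68 and 1.16 CPM in Scgb3a2-high cells. Clca1, a secreted goblet protein, had a median log2 ratio of 1.35, and Slc12a2, a sodium, potassium and chloride cotransporter, one of −0.84.

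Of 28 xenobiotic enzyme genes, 13 were lower and 2 higher in 4 of 4 libraries, with a median log2 ratio of −0.21. That share of lower genes is near the 39.7% over all genes, as it is for the ion transport, transcription factor, secretory pathway and early response lists below. Ces1f was the 1 past 2-fold. Cyp4a12b, a cytochrome P450, was higher, at 121 to 168 CPM in members, against 34.2 to 84.5 CPM in Scgb3a2-high cells, though its near copies can share reads. Of 13 antioxidant genes, 5 were higher and 2 lower in 4 of 4 libraries, with Gpx2, a glutathione peroxidase, at 0.43 and Srxn1, sulfiredoxin, at 0.42. Of 16 ion transport genes, 8 were lower and 2 higher in 4 of 4. Scnn1b, a subunit of the epithelial sodium channel, was 2-fold lower in all, at 0.517 to 1.41 CPM in members, against 3.88 to 5.35 CPM in Scgb3a2-high cells. Aqp3, a water and glycerol channel, had a median log2 ratio of −1.10.

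Among signalling lists, 7 of 8 Notch pathway genes were lower in 4 of 4 libraries, against 39.7% of all genes, and 0 were higher. Notch1, a receptor, had a median log2 ratio of −0.81, and Jag1, a ligand, one of −0.58. Hes1, a target of the pathway, was at 38.2 to 44.5 CPM in members, against 46.7 to 54.4 CPM in Scgb3a2-high cells. None of the 8 reached 2-fold in all libraries. Of 7 EGF receptor and ligand genes, 3 were lower in 4 of 4, Areg, Nrg1 and Erbb3, while Hbegf, another ligand, had a median log2 ratio of −0.02 and Egfr one of 0.20. Of 15 chemokine and cytokine genes, 5 were lower and 3 higher in 4 of 4. Ccl28, a mucosal chemokine, was at 2.33 to 5.17 CPM in members, against 0.808 to 2.02 CPM in Scgb3a2-high cells. Cxcl10, an interferon-induced chemokine, was at 7.88 to 31.2 CPM in members, against 23.4 to 46.7 CPM in Scgb3a2-high cells. Of 15 interferon response genes, 2 were higher and 2 lower in 4 of 4. Ifi27l2a stood apart from the others, at 122, 120, 218 and 89.4 CPM in members, against 38.4, 24.5, 77.2 and 45.9 CPM in Scgb3a2-high cells. Of 10 MHC class I genes, 1 was higher and 0 lower in 4 of 4, and of 7 MHC class II genes only Cd74 reached 200 UMIs.

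Of 24 airway lineage transcription factors, 12 were lower and 4 higher in 4 of 4 libraries. Pax9 had a median log2 ratio of −0.73 and Cebpd one of −0.59. Sox9 was at 4.14, 12.7, 6.35 and 4.36 CPM in members, against 1.19, 3.71, 4.44 and 1.16 CPM in Scgb3a2-high cells, and Elf5 had a median log2 ratio of 0.86. Nkx2-1 and Foxa1, whose letters were searched in the promoters, had median log2 ratios of −0.18 and −0.11. Of 27 endoplasmic reticulum folding and secretory pathway genes, 13 were lower and 1 higher in 4 of 4, with a median log2 ratio of −0.10 beside −0.14 over all genes. Of 20 early response genes, which digestion of a tissue can induce, 9 were lower and 0 higher, led by Hspb1, a small heat shock protein, at −0.80. Of 7 mitochondrial transcripts, 6 were lower and 1 higher in 4 of 4, with a median log2 ratio of −0.14, as over all genes. The median mitochondrial share of a cell's UMIs was 3.77% in members and 4.13% in Scgb3a2-high cells. The part of RNA quality and early response genes in the other results was not tested.

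Against the 160 Tff2-high cells, few genes stood 2-fold apart, and 3 of the 8 lower ones, Tff1, Clca1 and Gp2, were in the goblet program list. Of 7727 genes, 3 were at least 2-fold higher in all 4 libraries (0.0388%) and 8 at least 2-fold lower (0.104%). The median log2 ratio over all genes was 0.11, and −0.05 with the secretoglobins left out of the denominator. Tff2-high cells held 331956 to 1113231 UMIs a library, against 8250477 to 11605993 for the members, so their counts of low genes were small. Without library 1, 2, 3 or 4 the number of higher genes was 12, 7, 15 or 15. Tff1, a trefoil factor of goblet cells, was at 1.03, 5.34, 2.82 and 0.727 CPM in members, against 49.4, 67.2, 81.3 and 44.3 CPM in Tff2-high cells. Clca1 was at 22.3, 21.1, 26.8 and 44.6 CPM in members, against 638, 406, 217 and 303 CPM in Tff2-high cells. Neither overlapped. Retnla, Gp2, Chil4 and Itln1 were also 2-fold lower in all libraries, at medians of 8.91-, 9.55-, 9.26- and 3.37-fold. Chil4 and Itln1 are in the antimicrobial list. The other two of the 8, Nes and Trim47, are in no list and had median log2 ratios of −1.37 and −1.46. Retnla and Gp2 thus lay between the other classes, above Scgb3a2-high and below Tff2-high cells.

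The 3 genes higher than in Tff2-high cells were Serpinb2, Fos and Hspb1. Serpinb2 was at 70.9, 79.6, 54.4 and 32.7 CPM in members, against 2.69, 19.5, 21.1 and 3.69 CPM in Tff2-high cells, where it rested on 2 to 9 UMIs. Fos, an early response factor, was at 37.7, 49.8, 86.5 and 51.4 CPM in members, against 17.1, 17.4, 30.1 and 24.0 CPM in Tff2-high cells, on 8 to 19 UMIs. Hspb1 was at 620, 711, 784 and 385 CPM in members, against 198, 174, 268 and 187 CPM in Tff2-high cells. Adm2, Prss22 and Gstm2, next by the same measure, had smallest log2 ratios of 0.98, 0.89 and 0.88, under 2-fold. Of 20 early response genes, 15 were higher in 4 of 4 libraries than in Tff2-high cells, beside 16.2% over all genes. Of 7 mitochondrial transcripts, 6 were higher in 4 of 4, with a median log2 ratio of 0.14, and the mitochondrial share of UMIs had medians of 3.77% in members and 3.40% in Tff2-high cells. The part of this difference in the other results was not tested. Of 10 goblet program genes, 7 were lower in 4 of 4, beside 4.97% over all genes. Of 27 xenobiotic enzymes, 19 were higher in 4 of 4. Of 14 antimicrobial and BPI-fold genes, 6 were lower and 2 higher in 4 of 4, with a median log2 ratio of −0.52. Over all genes, 4.97% were lower and 16.2% higher. Reg3g was lower in members in each library, at 6074 to 12254 CPM, against 9078 to 17441 CPM in Tff2-high cells. Of the class's markers, Sftpa1, Dmbt1 and Bpifb1 were lower than in Tff2-high cells in 4 of 4 libraries, with median log2 ratios of −0.52, −0.50 and −0.92. Scgb3a1 was likewise lower, at 52687 to 69625 CPM in members, against 75753 to 95953 CPM in Tff2-high cells.

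The members also differed between libraries. Of 7592 genes with at least 200 UMIs in members, 583 (7.68%) had a highest library at least 2 times the lowest and 95% Poisson intervals that did not overlap. Without library 1, 2, 3 or 4 this count was 349, 245, 272 or 296. Each genotype had 1 library, so a difference between libraries cannot be told apart from one between pools of mice, preparations or genotypes. Among listed antimicrobial genes with enough UMIs, 8 of 13 were apart. Lcn2 had the widest range of these after Chil1, and its 95% intervals were 213 to 231, 27.8 to 34.3, 68.5 to 78.6 and 189 to 209 CPM in libraries 1 to 4.

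Of the 12 genes named as furthest above Scgb3a2-high cells, 10 had their lowest level among members in library 2, which was the lowest library for 12% of all genes. The exceptions, Lox and Retnla, were lowest in library 3, the lowest for 32.2% of all genes. The same 10 genes were lowest in library 2 among the members with 65 to 80% Scgb3a1, and 8 of the 12 were lowest there in Scgb3a2-high cells. Library 2 also had the highest share of members. These counts were chosen after the values were seen. Of the 12 lower genes, 3 were lowest in library 2 and 6 in library 4, which was the lowest for 32.1% of all genes.

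**Figure D4:**
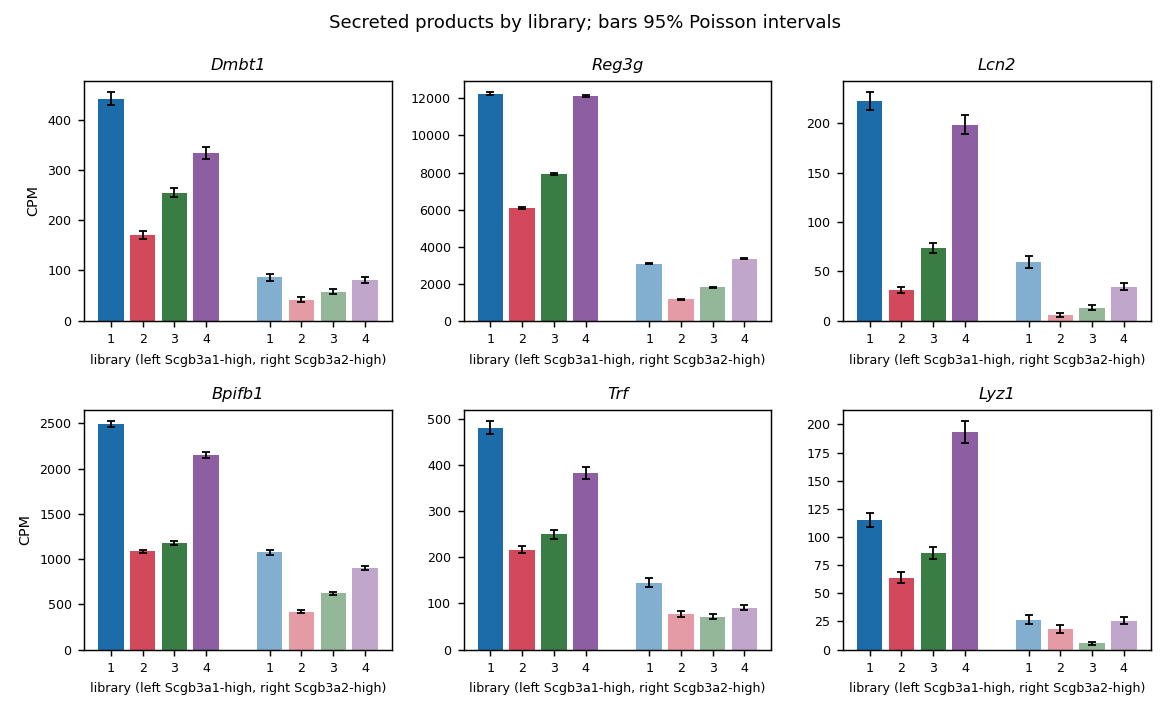
CPM (y axes, from 0) of 6 secreted products in Scgb3a1-high cells (left, solid) and Scgb3a2-high cells (right, pale) of libraries 1 to 4; error bars are 95% Poisson intervals for counting error. The members' bar is above the Scgb3a2-high bar of the same library in each panel, and library 2 has the lowest bar of the members in all 6. These products were picked for the figure among those higher in members, so the first holds by choice. Not all secreted products were lowest in library 2: among members, Lox and Retnla were lowest in library 3 and Ltf in library 4.

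Other lists also held genes apart between libraries, and their counts are set beside 7.68% over all genes. Of 20 early response genes, 9 were apart, with Hspa1a, an inducible heat shock protein, at 353, 388, 1312 and 444 CPM in members of libraries 1 to 4. Of 10 chemokine and cytokine genes, 6 were apart, and of 9 interferon response genes, 4. Ifit1, an interferon-induced antiviral gene, was at 28.02, 24.0, 8.38 and 5.09 CPM. None of 13 antioxidant, 9 MHC class I, 5 surfactant or 7 mitochondrial genes was apart by this measure. At the share over all genes, lists this short can hold none, so these counts do not set the lists apart. Among xenobiotic enzymes 5 of 27 were apart, and Akr1c18, a steroid dehydrogenase, was at 11.2, 57.7, 57.9 and 15.8 CPM.

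The genes furthest apart between libraries were mostly not secretory products. Dbi, which encodes the acyl-CoA binding protein, was at 124, 125, 0 and 127 CPM in members of libraries 1 to 4. With 0 UMIs in library 3, where 3 UMIs would be 0.265 CPM, library 4 was at least 478-fold higher. Dbi was likewise at 0 in all filtered cells of library 3, and without that library its highest level was 1.02 times the lowest. The feature eGFP, a fluorescent reporter sequence, was at 27.6, 120, 0 and 32.0 CPM in members, so library 2 was at least 454-fold above library 3. In cells high in ciliated genes eGFP stood at 1947, 99.3, 0 and 2398 CPM, so libraries 1 and 4 had far more of it there than in members. Library 2 had similar amounts in members, in Scgb3a2-high cells (137 CPM) and in all filtered cells (134 CPM).

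Ccl5, a chemokine, had 185, 85, 17 and 0 UMIs in members, at 17.4 and 7.32 CPM in libraries 1 and 2, and stood at 2.68, 10.8, 3.45 and 0.0963 CPM in Scgb3a2-high cells, the last on 1 UMI. Abcb1b, a drug efflux pump, was at 1.79, 23.8, 5.29 and 0.606 CPM in members, high in library 2. Krt14, a basal keratin, was at 1.32, 7.24, 24.2 and 0.970 CPM in members, against 3267, 3250, 2858 and 2040 CPM in basal keratin cells of the same libraries. Sprr1a, a cornified envelope precursor, was at 232, 576, 216 and 52.6 CPM in members, and in basal keratin cells at 1732, 3465, 1404 and 630.5 CPM; library 2 was the highest and library 4 the lowest in both. Apobec3, a restriction factor of retroviruses, was at 15.3, 7.84, 2.03 and 10.8 CPM, and without library 3 its ratio was 1.95. Plac9a was at 24.1 CPM in library 3 and 1.33 to 6.46 CPM in the others. In cells high in ciliated genes it was at 36.3, 355, 863 and 17.3 CPM in libraries 1 to 4, the same order of libraries.

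For 3 more of these genes, related sequences can share reads, and the values are uncertain. Rps18-ps6, listed as a ribosomal protein pseudogene, was at 30.3 CPM in library 3 and at 0.188, 0.517 and 0.121 CPM in libraries 1, 2 and 4. Tpm3-rs7, a sequence related to tropomyosin 3, was at 31.2 and 31.5 CPM in libraries 2 and 3 and at 2.26 and 2.55 CPM in libraries 1 and 4. Rpl29, a ribosomal protein gene, was at 304 CPM in library 2 and at 63.8, 71.1 and 33.9 CPM in libraries 1, 3 and 4. The same libraries stood out in Scgb3a2-high cells for each of the 3.

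**Figure D5:**
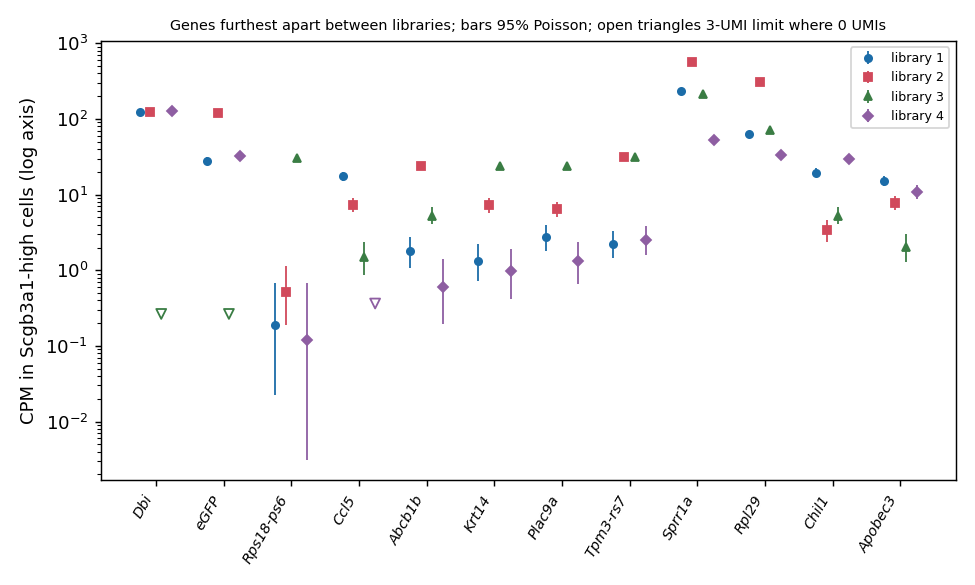
CPM in Scgb3a1-high cells (y axis, log scale) of the 12 genes furthest apart between libraries (x axis), 1 point per library with 95% Poisson intervals; open triangles show the level of 3 UMIs where a library had 0. Dbi and eGFP are at 0 UMIs in library 3 and Ccl5 in library 4.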

How the data were processed

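The deposited matrix held raw counts of UMIs per gene and barcode for all libraries together, made with Cell Ranger 6.0.1 per the file headers, with build GRCm39 per the submitters' processing notes. The annotation release is not given in the sources used here. Libraries were made with 10x 3′ chemistry per the labels' protocols, so 1 tag counts 1 transcript whatever its length, and antisense or near-identical genes can share reads. Free RNA was not subtracted. No doublets were removed, as the rule states none; an alternative removed the highest doublet scores.

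The members, gene lists and tests were chosen with earlier results of these data known. UMIs were summed per library and class with numpy 2.4.6 and scipy 1.17.1, scaled to CPM, and compared within each library as log2 ratios with 1 CPM added, for genes with at least 200 UMIs. The calling was tested on counts simulated around a pooled profile with counting error alone. That check does not cover wider spread or the choice of cells by their own counts. Named genes were the 12 with the highest smallest and the 12 with the lowest largest ratio against Scgb3a2-high cells, 6 and 6 against Tff2-high cells, the 12 furthest apart between libraries, the rule's genes and markers, and the extremes of each list (337 genes in 19 lists, 5 not measured). The 5 not measured were Mx1, Mx2, Hes4, Malat1 and Neat1. A few genes beside these, Nes and Trim47 among them, were named after their values were seen. Alternatives were the denominator, thinning, minimum UMIs, doublets, basal keratins, the Scgb1a1 limit, the fold, the pseudocount, a wider margin and leaving out each library. Values over libraries are medians and ranges with no test, since the libraries carry no group. Results for some listed genes are not reported here.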

Additional observations from a re-analysis of the deposited data

How the results depend on the processing

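The cell classes were compared within each library throughout. Genotypes could not be compared, paired or otherwise, because each had 1 library and no library number is tied to a genotype. Main counts were 24 higher and 33 lower than in Scgb3a2-high cells, 3 higher and 8 lower than in Tff2-high cells, 583 apart between libraries, and a share of 15.3%. Thinning to 3000 UMIs gave 14 higher than in Scgb3a2-high cells, 12 higher and 2 lower than in Tff2-high cells, 176 apart, and a share of 19.4%. A 1.5-fold limit gave 66, 116, 48, 24 and 2128. A pseudocount of 5 CPM gave 11 higher and 20 lower than in Scgb3a2-high cells. Requiring the larger of the pair to be at least 4 times the smaller gave 37 and 79, and a share of 4.47%. Scgb1a1 at 10% or more gave a share of 11.6% and 14 higher than in Tff2-high cells. The count higher than in Tff2-high cells was 8 by the mean over cells, 1 without secretoglobins in the denominator, 27 with a minimum of 50 UMIs, and 7 with doublets removed (147 members). A minimum of 50 UMIs gave 1164 apart. Leaving out 1 library at a time gave 22 to 27 higher and 31 to 45 lower than in Scgb3a2-high cells, 7 to 15 higher and 6 to 11 lower than in Tff2-high cells, and 245 to 349 apart. The median log2 ratio of Psmb10 turned to −0.027 by the mean over cells, and that of Csf3 to −0.055 with the wider margin. Of the genes named against other cells, 472 of their values under alternatives kept direction and side of the limit, 9 passed it newly and 11 no longer did. The causes were not tested. Low counts limit the values against Tff2-high cells, where a library held as few as 331956 UMIs.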
